A study of Mus musculus with 22 samples.

Results

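The 9 annexins described here, Anxa1 to Anxa8 and Anxa11, were taken from a fixed list of gene symbols, and all 9 were found among the 31053 genes of the count matrices. Annexins are cytosolic proteins that bind acidic phospholipids of membranes when calcium rises, through a conserved core of repeats, while a variable N-terminal tail sets their partners. They are known for roles in membrane repair, vesicle traffic and fusion, plasminogen activation at the cell surface and the restraint of inflammation, and they are abundant in myeloid, epithelial and endothelial cells.

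The study profiled single cells of mice carrying Prom1-CreERT2, a tamoxifen-inducible Cre driven from the Prom1 locus, and the Rosa26ZSG reporter, which leaves cells that had Cre activity and their progeny green. It asked whether loss of the sodium leak channel gene Nalcn releases tagged cells without a tumour into the blood. Droplet libraries (10x Genomics, 3' end) of 3 kinds were made: sorted green blood cells of mice with no tumour (ntCZCs), hashtagged pools of kidney, liver, lung, stomach and either epididymis or uterus (tissue), and unsorted peripheral blood mononuclear cells (PBMCs). The genotype labels were Nalcn-wt, Nalcn-het and Nalcn-null, shortened here to wt, het and null. The ntCZC libraries were 2 wt, 4 het and 4 null, the tissue libraries 5 wt, 2 het and 2 null, and the PBMC library was 1 wt. Mice were 551 to 654 days old, apart from the PBMC mouse of 120 days. Every strain label carried Prom1-CreERT2 and Rosa26ZSG, so wt mice also carried the Cre and the reporter. Deletion was limited to cells in which the Prom1 locus was active when tamoxifen was given and their progeny, so tissue cells of a null library were not all recombined. No label ties a library to an animal; n is therefore a number of libraries, and p-values measure the spread between these libraries, which may in part be technical. A further 2 tissue libraries, whose title and strain fields give different genotypes, entered no comparison.

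The ntCZC libraries held 50 to 621 barcodes and 161541 to 2600526 unique molecular identifiers (UMIs, counted molecules), and the 9 tissue libraries 1856 to 27857 barcodes and 8571019 to 139793927 UMIs, so tissue levels rest on far more counts. The PBMC library had 752 barcodes and 1422144 UMIs. Nalcn gave 0 UMIs in the ntCZC and PBMC libraries. In tissue it gave 39 UMIs over 5 wt libraries (0.114 ± 0.0933 CPM, the UMIs of a gene per 1e+06 UMIs of the library, ± SD), 11 over 2 het (0.131 ± 0.0378) and 24 over 2 null (0.329 ± 0.0808); where the 3' reads lie relative to the deleted part is not given in the sources used here, so these counts do not check the labels. Haemoglobin genes took 73.5% of the UMIs of ntCZC wt replicate 3, against 0.333% to 32.4% in the other ntCZC libraries, and its annexin levels were between 0 and 43.3 CPM. Tissue null replicate 3 is labelled female and held 465 epididymal epithelium-like cells, which goes against its label. Of 231 pairs of libraries, none shared more than 2.60% of the barcodes of the smaller one.

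In the mm10 build the loci lay at chr19:20373428-20390944 for Anxa1 (ENSMUSG00000024659), chr9:69453620-69491795 for Anxa2 (ENSMUSG00000032231), chr5:96793339-96845966 for Anxa3 (ENSMUSG00000029484), chr6:86736840-86793584 for Anxa4 (ENSMUSG00000029994) and chr3:36448923-36475894 for Anxa5 (ENSMUSG00000027712). Anxa6 (ENSMUSG00000018340) was at chr11:54979108-55033445. Chromosome 14 held Anxa7 (ENSMUSG00000021814, chr14:20455260-20480133), Anxa11 (ENSMUSG00000021866, chr14:25842156-25886804) and Anxa8 (ENSMUSG00000021950, chr14:34085981-34100571). Opposite-strand genes overlapped Anxa1 (1500015L24Rik), Anxa2 (Gm16144), Anxa4 (Gm44036), Anxa8 (A630023A22Rik) and Anxa11 (Anxa11os). The use of strand in the counting is not given in the sources used here, so reads of these partners may be shared.

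Promoters are shown for Anxa1 and Anxa2, whose levels were high in the same myeloid cells, and for Anxa8, whose highest levels among 22 tissue classes were in ciliated-like and mesothelial-like cells. Each is the window of 250 bases before the start that RefSeq gives the gene in GRCm38.p6, printed 5′ to 3′ on the strand of the gene, with matches on either strand to the TATA box letters TATAAA, to the GC box letters GGGCGG and to the AP-1 site letters TGANTCA in capitals.
Anxa1, chr19:20390672-20390921, minus strand: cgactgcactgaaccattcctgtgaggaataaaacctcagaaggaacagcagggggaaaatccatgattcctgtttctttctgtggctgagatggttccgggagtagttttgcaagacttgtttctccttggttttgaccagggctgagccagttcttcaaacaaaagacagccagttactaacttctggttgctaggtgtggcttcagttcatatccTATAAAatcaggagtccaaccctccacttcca
Anxa2, chr9:69453433-69453682, plus strand: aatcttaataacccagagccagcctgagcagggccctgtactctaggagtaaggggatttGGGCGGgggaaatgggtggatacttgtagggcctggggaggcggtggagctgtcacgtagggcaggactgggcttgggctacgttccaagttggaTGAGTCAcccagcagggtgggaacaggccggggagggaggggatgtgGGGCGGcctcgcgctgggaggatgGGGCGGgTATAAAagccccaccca
Anxa8, chr14:34085729-34085978, plus strand: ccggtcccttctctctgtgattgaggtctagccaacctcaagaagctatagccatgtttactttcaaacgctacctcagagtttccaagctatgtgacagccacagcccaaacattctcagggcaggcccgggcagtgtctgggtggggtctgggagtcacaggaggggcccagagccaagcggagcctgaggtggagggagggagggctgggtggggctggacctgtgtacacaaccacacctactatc
The RefSeq starts are not those of the loci above. The RefSeq start of Anxa1 lies 273 bases inside its locus, that of Anxa2 63 bases inside and that of Anxa8 2 bases before it, so the Anxa1 window and the last bases of the Anxa2 window fall within the loci. Distances below are counted from the RefSeq start. The Anxa1 window held TATAAA 32 bases before the start and 2 CpG dinucleotides. The Anxa2 window held TATAAA 17 bases before the start, GGGCGG 190, 48 and 24 bases before it, TGAGTCA 95 bases before it, and 9 CpGs. The Anxa8 window held none of the 3 motifs and 4 CpGs. Among 32851 such windows, TATAAA was found in 12.4%, GGGCGG in 32.7% and TGANTCA in 6.75%, and the median was 6 CpGs. A match is only a run of letters, and 7 of the 9 members had a window.

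Circulating tagged cells were first compared with pooled tissue on the sum of all barcodes. Anxa1 was higher in ntCZC libraries, Anxa4 and Anxa7 were lower, Anxa8 was seen in tissue and nearly absent from ntCZCs, and Anxa2, Anxa3, Anxa5, Anxa6 and Anxa11 did not pass the test. Such sums cannot tell more cells with an annexin from more of its RNA per cell, and sorting, dissociation and the mix of cell types differ with the kind and cannot be told apart from it. Genotype labels were uneven too, with 2 of 10 ntCZC and 5 of 9 tissue libraries wt, and the fit held no genotype term. In the edgeR quasi-likelihood fit over 10681 genes, 64.5% of all genes were called at an adjusted p of 0.05, 28.5% higher and 36% lower, so the 3 calls among 8 annexins tested (1 higher, 2 lower) are fewer than that background. The median log2 fold change was -0.03 over these 8 and -0.08 over all genes. Of the 6891 genes called, 44.1% were higher in ntCZCs; with RLE scaling 31.7% of 6938 were, and the median of all genes was -0.30.

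Anxa1 is a glucocorticoid-regulated protein that dampens neutrophil recruitment through formyl peptide receptors. Its level over the 10 ntCZC libraries was lowest at 0, with a median of 153 and a highest value of 380 CPM (158 ± 104, SD). Over the 9 tissue libraries the lowest was 37.0, the median 62.9 and the highest 198 CPM (80.2 ± 48.0). Levels were high in ntCZC wt replicate 1 and tissue wt replicate 2, and the ranges of the kinds overlapped. The log2 fold change was 1.00 ± 0.34 (SE), with adjusted p = 0.0129 by edgeR. When barcodes with under 200 genes or a mitochondrial share over 20% were left out, the call was lost (0.55, adjusted p = 0.154).

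Anxa4 is a membrane-binding annexin best known from secretory epithelia. It ran from 0 over a median of 39.1 to 52.6 CPM in ntCZCs (37.8 ± 15.8) and from 43.9 over 68.0 to 160 CPM in tissue (69.3 ± 36.1). The kinds overlapped only between 43.9 and 52.6 CPM. Its log2 fold change was -0.85 ± 0.23 (adjusted p = 0.00304, edgeR). With ntCZC and tissue libraries of 1 genotype and number as a block, added after seeing the data, it did not pass (-0.62, adjusted p = 0.0743). Anxa7, first described as a protein that aggregates secretory granules, ran from 6.19 over 48.4 to 74.7 CPM in ntCZCs (47.9 ± 20.7) and from 54.3 over 61.2 to 69.5 CPM in tissue (62.5 ± 5.11). All tissue values of Anxa7 fell inside the ntCZC range. The Anxa7 difference was -0.41 ± 0.15 (adjusted p = 0.0195, edgeR), and it passed the threshold no longer without ntCZC null replicate 1 (-0.34, adjusted p = 0.0602) or null replicate 3 (-0.33, adjusted p = 0.0543). Nor did it pass with the block given for Anxa4 (-0.47, adjusted p = 0.0908).

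Anxa8, an annexin of stratified and mucosal epithelia, gave 1 UMI in all ntCZC libraries, in het replicate 1 (1.05 CPM). The 9 tissue libraries ran from 2.12 over 3.62 to 6.42 CPM (3.67 ± 1.26), above each observed ntCZC value. In the smallest ntCZC libraries, such as wt replicate 3 with 161541 UMIs, a count of 0 cannot exclude such levels. Pooled, tissue held 1712 UMIs of 465176149 (3.68 CPM) and ntCZCs 1 of 13389093 (0.0747 CPM), a ratio of 49.3 with an exact 95% counting interval from 8.83 to 1947. This interval covers counting error only. An Anxa8 UMI was found in 1025 tissue barcodes (0.714%) and in 1 ntCZC barcode (0.0400%), and the gene was left out of the fit by the filter on low counts.

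The other members had like means in the kinds over all barcodes. CPM divides by all UMIs, and mitochondrial genes took 2.04% to 6.38% of them in ntCZC libraries and 20.7% to 52.3% in tissue libraries. When barcodes with under 200 genes or a mitochondrial share over 20% were left out, Anxa5 was called lower in ntCZCs (-0.60, adjusted p = 0.0388, edgeR). Anxa2 then changed sign (-0.35, adjusted p = 0.196, edgeR), so the likeness depends on the barcodes kept. Anxa2, which pairs with S100a10 to bind plasminogen at the cell surface, ran from 43.3 over 266 to 642 CPM in ntCZCs (292 ± 190) and from 169 over 263 to 329 CPM in tissue (247 ± 53.5), with a log2 fold change of 0.14 (adjusted p = 0.620). Anxa5, the phosphatidylserine binder used to stain dying cells, was at 206 ± 110 CPM in ntCZCs and 218 ± 69.2 CPM in tissue (adjusted p = 0.555). For Anxa3 the means were 66.8 ± 42.5 and 61.1 ± 14.7 CPM (adjusted p = 0.966). Anxa6, the largest annexin, was at 50.6 ± 22.4 and 49.2 ± 9.84 CPM (adjusted p = 0.949). Anxa11, which binds the calcium sensor Pdcd6 and tethers RNA granules to lysosomes, was at 46.4 ± 21.8 and 47.5 ± 7.93 CPM (adjusted p = 0.832). The tests were edgeR's, with 10 against 9 libraries. In each of these 5 genes the ntCZC libraries spread more widely than the tissue libraries. The lowest ntCZC value of each was that of wt replicate 3, the haemoglobin-rich library with 161541 UMIs. All ntCZC libraries held fewer UMIs than any tissue library, and the part of counting error in this spread was not tested.

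**Figure D1:**
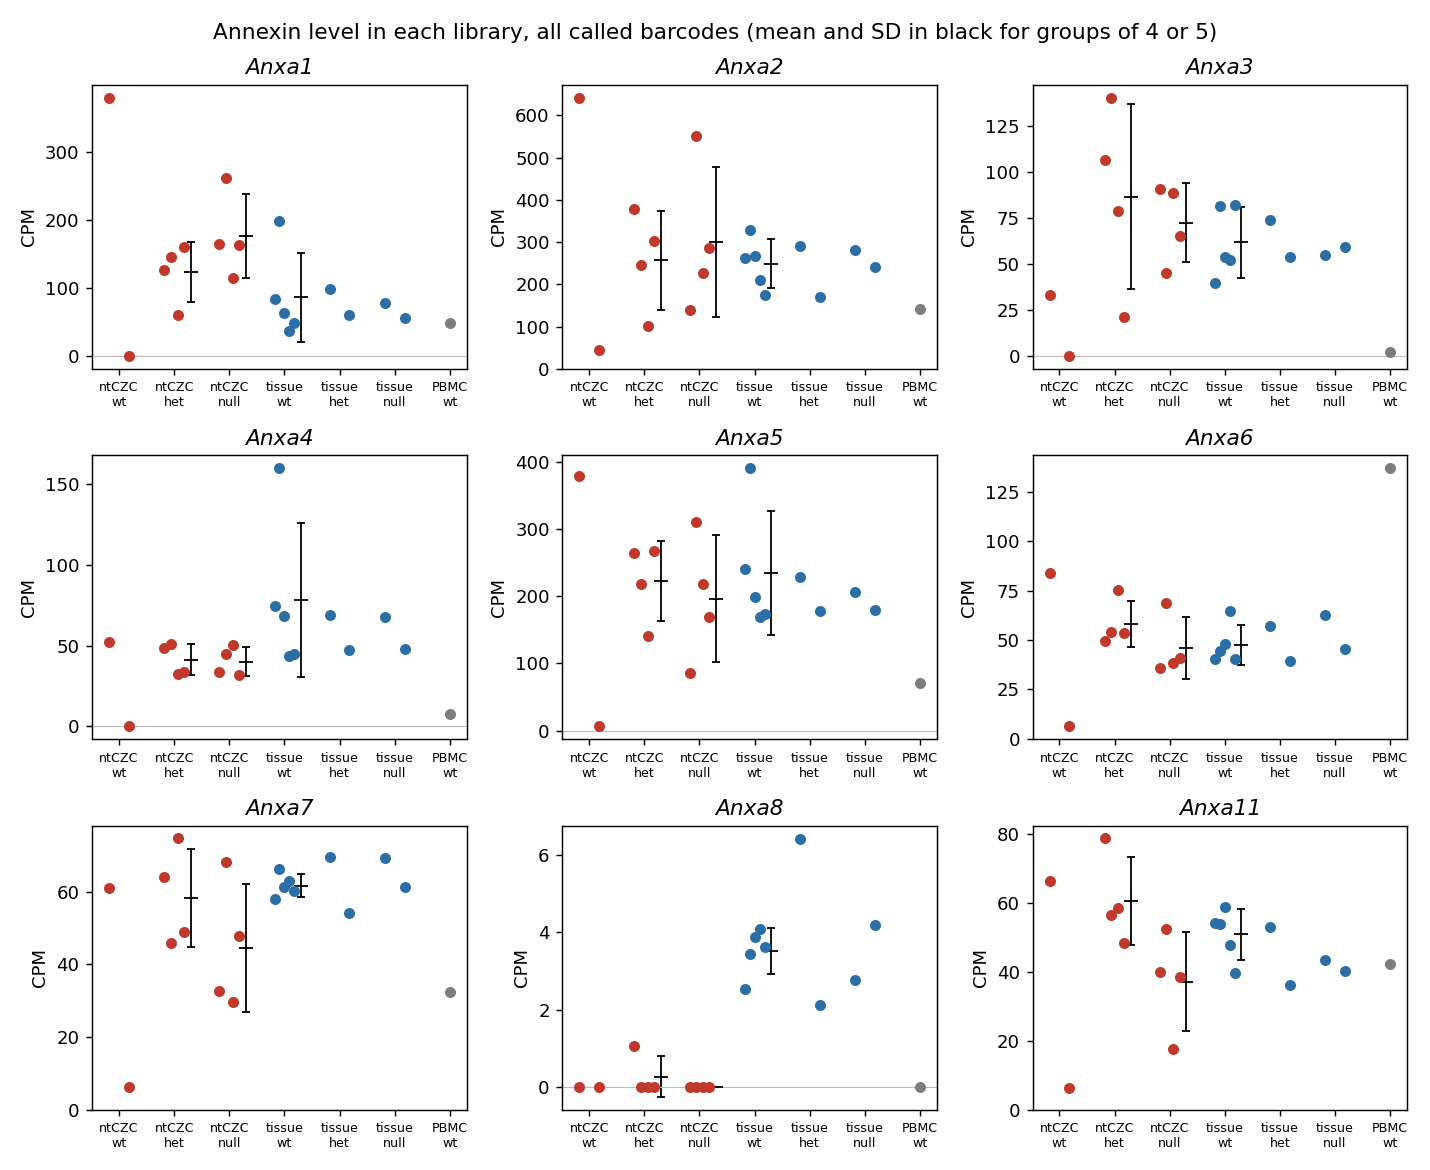
Level of each annexin in every library (y axis, CPM over all barcodes of a library) by group (x axis: ntCZC, tissue and PBMC libraries with their genotype label). Each point is 1 library, and black marks give the mean and SD of groups of 4 or 5 libraries; Anxa8 lies at 2.12 to 6.42 CPM in tissue and at or near 0 in blood, and Anxa6 is highest in the PBMC library at 137 CPM.

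The PBMC library, with no replicate, allowed no test. Its Anxa6 level was 137 CPM (exact 95% Poisson interval 119 to 158), above each ntCZC and tissue library. Anxa1 was at 48.5 CPM (37.8 to 61.4), Anxa2 at 141 CPM (122 to 162) and Anxa5 at 71.0 CPM (57.8 to 86.3). Anxa3 gave 3 UMIs (2.11 CPM, 0.435 to 6.16) and Anxa4 was at 7.73 CPM (3.86 to 13.8). Anxa7 was at 32.3 CPM (23.7 to 43.1) and Anxa11 at 42.2 CPM (32.2 to 54.3). Anxa8 gave 0 UMIs, for which the same exact interval reaches 2.59 CPM. Anxa2, Anxa3, Anxa4, Anxa5 and Anxa7 were each below all 9 tissue libraries, and so was Anxa8 by its point value. How many of all genes lay outside the range of the tissue libraries was not counted, so nothing is read from the number of annexins that did. Of the 575 PBMCs given a class by the markers described below, 225 were B cell-like, 238 T cell-like and 45 NK cell-like. The PBMC mouse was younger and its cells were not sorted, so age, sorting, the mix of cell types and kind cannot be told apart.

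Of 12 annexin partners, 5 were higher and 3 lower in ntCZC libraries, a share near that of all genes called (64.5%), so nothing is read from the count. Dysf, which encodes the membrane repair protein dysferlin, was among the lower ones, with 2 UMIs in 1 ntCZC barcode and 8.93 ± 1.71 CPM in tissue. The pooled ratio of tissue to ntCZCs was 59.5 (exact 95% counting interval 16.5 to 491). Dysf passed the filter through tissue alone, so its fitted fold change and p are not given, and its call is no result. Of the 3 lower partners, Fpr1 and Pdcd6ip remain without it. Higher levels were found for Sri, the annexin 7 partner sorcin (0.81, adjusted p = 1.49e-06), S100a4, an S100 ligand of annexin 2 (3.03, adjusted p = 6.88e-06), and the plasminogen receptor gene Plgrkt (0.78, adjusted p = 1.36e-05). Mean S100a4 was 788 CPM in ntCZCs and 88.6 CPM in tissue. The median over the 12 partners, Dysf included, was 0.29.

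Genotype labels were then compared within each kind, to ask whether annexins moved with Nalcn. No annexin passed the test in any of these comparisons. In ntCZCs, 0 of 8 annexins were called for null against wt (0% of 9379 genes called, 360 with an unadjusted p under 0.05), for het against wt (0.107% called) and for null against het (0% called, 686 with an unadjusted p under 0.05), by edgeR and also by DESeq2. Among the annexins, only Anxa2 between null and het had an unadjusted p under 0.05. Of 11 partners tested none was called. The wt group here held ntCZC replicates 1 and 3, of which replicate 3 was the haemoglobin-rich library. The haemoglobin share was 0.333% to 6.04% in het libraries, with 4.63% in the female one. Among null libraries the male one was at 6.16% and the female ones at 25.2% to 32.4%. The high shares of these 2 groups thus lay in libraries both null and female, and are not assigned to the label. With haemoglobin genes left out of the counts, again no annexin was called in the 3 comparisons.

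In ntCZCs, Anxa2 was the annexin with the smallest p between null and het. The null libraries, replicates 1 to 4, were at 138, 551, 228 and 287 CPM and the het libraries at 378, 245, 102 and 303 CPM. The ranges overlapped over most of their length, with null replicate 2 highest. The means were 301 and 257 CPM. The sex-adjusted log2 fold change was 1.11 ± 0.42 with an unadjusted p of 0.0239 (adjusted p = 0.585, edgeR). Sex was uneven, with 3 of 4 null libraries female and 3 of 4 het libraries male, and with no sex term the value was 0.50 ± 0.45. Anxa1 was at 166, 262, 115 and 163 CPM in the null libraries and at 127, 145, 60.4 and 161 CPM in the het libraries. The wt libraries were at 380 and 0 CPM for Anxa1 and at 642 and 43.3 CPM for Anxa2, at opposite ends of the ntCZC range.

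Among tissue libraries, 0 of 9 annexins were called for null against wt (0.0112% of 17863 genes called) or for het against wt (0% called, 1367 with an unadjusted p under 0.05), and DESeq2 called none either. None of 12 partners was called. All 9 annexins had a negative fold change in null against wt, with a median of -0.36 against -0.02 over all genes. For Anxa2 (261 against 249 CPM), Anxa6 (54.1 against 47.7) and Anxa7 (65.3 against 61.7) the null means were above the wt means, so the fitted signs go against them and no direction is read. The 5 wt libraries include wt replicate 2, the highest of the tissue libraries for Anxa1, Anxa2, Anxa4 and Anxa5. Anxa11 had the smallest p. It was at 54.2, 54.1, 58.7, 47.8 and 39.8 CPM in wt replicates 1 to 5, at 53.1 and 36.1 CPM in the het libraries and at 43.6 and 40.2 CPM in the null libraries. The null values lay within the wt range. The log2 fold change was -0.48 ± 0.14 for null (unadjusted p = 0.0107, adjusted p = 0.451) and -0.39 ± 0.15 for het (unadjusted p = 0.0331, adjusted p = 0.644) by edgeR. Without tissue null replicate 3, whose label is in doubt, the null value was -0.52 (adjusted p = 0.879). Both comparisons use the same wt libraries, and the mix of organs was not held constant.

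Within gated classes the genotype labels gave no annexin call either. In nonclassical monocyte-like ntCZCs, 0 of 7 annexins were called for null against het (3 against 3 libraries; 0% of 4794 genes called, 122 with an unadjusted p under 0.05). For tissue null against wt, 0 of 8 were called in endothelial-like (0% of 11949 genes, 644 with an unadjusted p under 0.05), macrophage-like (0% of 6343, 180) and fibroblast-like cells (0.053% of 3773). DESeq2 called no annexin in these 4 comparisons, and none had an unadjusted p under 0.05 by edgeR. At 2 null libraries, changes of modest size could go undetected.

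Cells were then sorted into classes by fixed sets of marker genes, none of them an annexin, and called "-like" for the class whose markers led. The gate took 1707 ntCZCs, 30997 tissue cells and 575 PBMCs, of which 22.8%, 45.3% and 20.3% lay at its cut. In tissue, 22 classes had at least 20 cells in at least 3 libraries. Squamous-like, hepatocyte-like, collecting duct-like, loop of Henle-like and platelet-like cells fell short and were not ranked. Each class was tested against the mean of the others, with the library as a block. Anxa8 entered this fit through the classes where it is high, so its calls are left out of the counts here. Of the other 176 annexin and class pairs, 56 were higher and 37 lower, against 21.8% higher and 9.31% lower over all 258126 gene and class pairs. Anxa1 was called in the most classes (10 higher, 5 lower). In fibroblast-like cells 5 of these 8 members were higher and 0 lower (37.9% of all genes tested in that class were called). The most members were low, with 1 higher and 6 lower in each, in B cell-like (42% of genes called), T cell-like (40.6%) and kidney proximal tubule-like cells (49.5%).

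**Figure D2:**
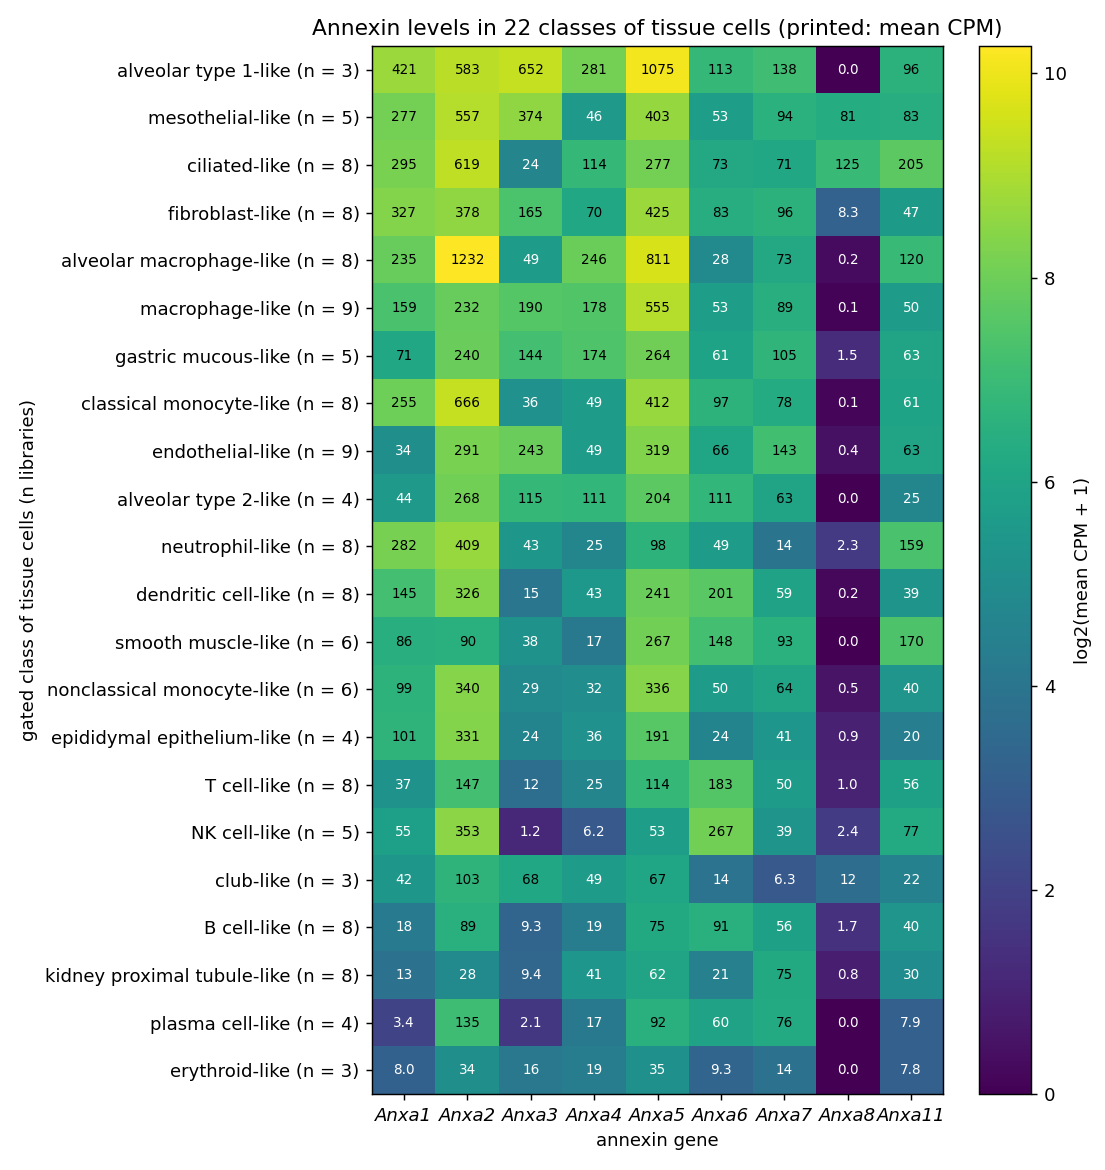
Mean level of the 9 annexins (columns) in 22 marker-gated tissue classes (rows), coloured by log2(mean CPM + 1) over libraries with at least 20 cells, with the mean CPM printed in each cell. Anxa8 is above 50 CPM only in ciliated-like (125) and mesothelial-like cells (80.8), while Anxa2 peaks in alveolar macrophage-like cells (1232).

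Anxa1 was high in myeloid cells, fibroblasts and some lung epithelia. It was at 282 ± 123 CPM in neutrophil-like cells of 8 tissue libraries (lowest 62.2, highest 467), 327 ± 64.0 CPM in fibroblast-like cells (235 to 436) and 421 ± 109 CPM in alveolar type 1-like cells of 3 libraries (295 to 494). The log2 difference from the other classes was 2.45 ± 0.23 in neutrophil-like cells (adjusted p = 1.8e-17, edgeR), 2.15 in fibroblast-like and 1.88 in classical monocyte-like cells. It was low in plasma cell-like cells, with 13.4 CPM in wt replicate 2 and 0 in 3 other libraries (6 UMIs in all), in kidney proximal tubule-like (-2.45) and in B cell-like cells (-2.26). Thinned to 1000 UMIs, 22.4% of neutrophil-like cells (median 1569 UMIs, 32.0% unthinned) held an Anxa1 UMI, against 0.437% of plasma cell-like cells (median 4467 UMIs, 1.92% unthinned). The partner that binds the annexin 1 tail, S100a11, was at 2857 ± 506 CPM in neutrophil-like cells, and the annexin 1 receptor gene Fpr2 at 238 ± 71.4 CPM there.

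Anxa2 was highest in alveolar macrophage-like cells, at 1232 ± 89.9 CPM over 8 libraries (1129 to 1363). Classical monocyte-like cells came next at 666 ± 71.5 CPM (569 to 768), and these ranges did not overlap. The log2 difference from the other classes was 2.41 ± 0.16 in alveolar macrophage-like cells (adjusted p = 3.9e-29, edgeR), 1.55 in classical monocyte-like and 1.13 in ciliated-like cells. Kidney proximal tubule-like cells were lowest at 28.1 CPM (-3.10 ± 0.28), with 99.3 CPM in wt replicate 2 and 2.27 to 36.8 CPM in the other libraries. At 1000 UMIs, 68.7% of alveolar macrophage-like cells (median 4064 UMIs, 95.5% unthinned) held an Anxa2 UMI and 3.26% of kidney proximal tubule-like cells (median 3302 UMIs, 10.9% unthinned). Its tetramer partner S100a10 was highest in mesothelial-like cells, at 1479 ± 287 CPM.

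Anxa3, an annexin of neutrophil granules and of endothelium, was at 652 ± 186 CPM in alveolar type 1-like cells, 374 ± 69.2 CPM in mesothelial-like cells of 5 libraries (311 to 479) and 243 ± 34.2 CPM in endothelial-like cells of 9 libraries (191 to 305). The mesothelial and endothelial ranges did not overlap. The log2 differences from the other classes were 3.32 ± 0.31, 2.89 ± 0.25 and 2.36 ± 0.16, in that order, and 2.15 in macrophage-like cells. NK cell-like cells were lowest, with 1 UMI in 5 libraries. Shares at 1000 UMIs were 44.8% of alveolar type 1-like cells (median 1564 UMIs, 57.7% unthinned) and 0.185% of NK cell-like cells (median 1638.5 UMIs, 0.382% unthinned).

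Anxa4 and Anxa5 shared their leading classes. Anxa4 was at 281 ± 134 CPM in alveolar type 1-like, 246 ± 48.7 CPM in alveolar macrophage-like, 178 ± 121 CPM in macrophage-like and 174 CPM in gastric mucous-like cells. Its log2 difference was 2.49 ± 0.15 in alveolar macrophage-like cells (adjusted p = 1.7e-31, edgeR) and its lowest class was NK cell-like cells, with 5 UMIs. Anxa5 was at 1075 ± 124 CPM in alveolar type 1-like, 811 ± 121 CPM in alveolar macrophage-like and 555 ± 149 CPM in macrophage-like cells. The Anxa5 differences were 1.74 ± 0.23, 2.09 ± 0.12 and 1.51 ± 0.12, against -2.45 ± 0.32 in NK cell-like and -1.81 ± 0.18 in kidney proximal tubule-like cells. Neighbouring classes in the order of Anxa4 and of Anxa5 overlapped throughout, so the exact order is not resolved.

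Anxa6 was highest in NK cell-like, dendritic cell-like and T cell-like cells, while B cell-like cells (90.6 CPM) and plasma cell-like cells (59.6 CPM) lay further down the order. It was at 267 ± 45.5 CPM in NK cell-like cells of 5 libraries (201 to 317), 201 ± 53.6 CPM in dendritic cell-like cells and 183 ± 16.9 CPM in T cell-like cells of 8 libraries (153 to 204). The log2 differences were 1.66 ± 0.20, 1.68 ± 0.13 and 1.46 ± 0.12, and Anxa6 was called lower in kidney proximal tubule-like (-1.49) and alveolar macrophage-like cells (-1.33). At 1000 UMIs, 23.8% of NK cell-like cells (median 1638.5 UMIs, 37.8% unthinned) held an Anxa6 UMI, against 1.33% of erythroid-like cells (median 3290 UMIs, 3.49% unthinned). Of the 9 members it was the only one called higher in NK cell-like cells, where 4 were called lower (15.8% of all genes were called in that class).

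Among the 8 members detected in each of the 22 classes, Anxa7 varied least, with a ratio of 22.9 between its highest and lowest class means. It was at 143 ± 30.4 CPM in endothelial-like cells (0.92 ± 0.11, log2 difference) and was called higher in plasma cell-like cells (1.03 ± 0.22) and lower in club-like cells, its lowest class, which held 3 UMIs. Anxa11 was at 205 ± 64.0 CPM in ciliated-like cells, 170 ± 65.3 CPM in smooth muscle-like cells and 159 ± 68.5 CPM in neutrophil-like cells, with log2 differences of 1.70 ± 0.14, 1.37 ± 0.20 and 2.13 ± 0.16. Plasma cell-like cells were low in Anxa11 (7.95 CPM, -1.74 ± 0.40). At 1000 UMIs, 18.9% of ciliated-like cells (median 4574 UMIs, 60.1% unthinned) held an Anxa11 UMI, against 1.12% of plasma cell-like cells (5.77% unthinned).

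Among the 22 classes, Anxa8 was highest in ciliated-like and mesothelial-like cells. Squamous-like cells, 37 in tissue, were too few to be ranked. Its levels in ciliated-like cells were 157, 116, 49.1 and 197 CPM in wt replicates 1 to 4, 131 and 116 CPM in the het libraries and 117 and 114 CPM in the null libraries, so all 8 libraries held it. In mesothelial-like cells it was 80.8 ± 21.5 CPM over 5 libraries (55.2 to 110), above each club-like library (11.7 CPM on average). Club-like cells held 5 UMIs, and fibroblast-like cells came next at 8.32 CPM (23 UMIs). Anxa8 was at or near 0 UMIs in many other classes, so its fitted differences depend on the prior count, and neither they nor its calls are given. Alveolar type 1-like cells gave 0 UMIs, which allows up to 16.9 CPM. So did alveolar type 2-like (up to 5.13 CPM), smooth muscle-like (4.01), erythroid-like (2.58) and plasma cell-like cells (2.43). Of ciliated-like cells 47.8% held an Anxa8 UMI (median 4574 UMIs; 15.2% at 1000 UMIs), of mesothelial-like cells 22.4% (median 3339 UMIs; 7.51%), and of plasma cell-like cells none.

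The genes whose class means followed each member most closely were named by the Pearson correlation of log2 CPM over the 22 tissue classes among 14294 genes, as a description only, since the classes share libraries. They were S100a11 and Diaph2 for Anxa1 (r = 0.79 and 0.77), Sfxn3 and Myl12b for Anxa2 (0.80 and 0.77), Mmp14 and App for Anxa3 (0.85 and 0.84), and Agmo and Myof for Anxa4 (0.83 and 0.80). Tmbim1 and Asah1 followed Anxa5 (0.91 and 0.90), Top2b and Rapgef6 Anxa6 (0.87 and 0.86), and Rab22a and Ganab Anxa7 (0.94 and 0.92). Col8a2 and Dnah1, a collagen and an axonemal dynein gene, followed Anxa8 (0.90 and 0.89), and Pfkl and Calm2 followed Anxa11 (0.88 and 0.86). Among the members, Anxa1 and Anxa2 had r = 0.79.

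Of the 12 partners in the 22 tissue classes, Ahnak, a large scaffold bound by the annexin 2 complex, and S100a11 were each called higher in 9 classes and lower in 7. S100a10 was higher in 7 and lower in 5, Pdcd6ip higher in 8 and lower in 3, and Plgrkt higher in 8 and lower in 5. Over all gene and class pairs 21.8% were higher and 9.31% lower, as given above. The formyl peptide receptor gene Fpr1 was at 110 ± 24.5 CPM in alveolar macrophage-like cells and 100.1 ± 48.5 CPM in neutrophil-like cells and at 0 UMIs in 5 classes, so its calls are not given.

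Blood cell classes allowed the kinds to be compared within 1 cell type. Nonclassical monocyte-like cells were present at 20 to 328 cells per library in 7 ntCZC and 6 tissue libraries. Of these ntCZC libraries only wt replicate 1 was wt, and the fit held no genotype term. None of the 7 annexins tested passed the threshold by edgeR (25.1% of 3889 genes were called, 9.93% higher and 15.2% lower), and DESeq2 called Anxa5, the 1 member with an unadjusted p under 0.05 in edgeR. In this class Anxa1 was at 92.3, 188 and 158 CPM in ntCZC het replicates 1, 2 and 4, at 168, 188 and 195 CPM in null replicates 1, 2 and 4 and at 186 CPM in wt replicate 1. Tissue wt replicates 1, 2 and 4 were at 92.8, 173 and 16.8 CPM, het replicates 1 and 2 at 89.7 and 139 CPM, and null replicate 3 at 83.3 CPM. Most ntCZC libraries lay above most tissue libraries, with overlap. The log2 fold change was 0.46 ± 0.25 (adjusted p = 0.190), and without tissue wt replicate 2 it was 0.78 (adjusted p = 0.0284).

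Anxa2 in nonclassical monocyte-like cells was at 399 ± 108 CPM in ntCZCs (225 to 523) and 340 ± 57.5 CPM in tissue (265 to 417), with a log2 fold change of 0.00 (adjusted p = 0.993). Anxa5 was at 307 ± 50.3 and 336 ± 76.9 CPM (-0.41 ± 0.15, adjusted p = 0.0592); without tissue het replicate 2 it was called lower (-0.46, adjusted p = 0.0378). Anxa4 (-0.49, adjusted p = 0.279), Anxa6 (-0.43, adjusted p = 0.215), Anxa11 (-0.22, adjusted p = 0.612) and Anxa7 (-0.06, adjusted p = 0.966) did not pass. Mean levels in ntCZCs and tissue were 36.0 and 32.0 CPM for Anxa4 and 49.8 and 39.8 CPM for Anxa11, higher in ntCZCs, so for both genes the TMM-scaled, sex-adjusted values point the other way from the means and no direction is read. Of 10 partners tested, S100a4 was higher in ntCZCs (0.67, adjusted p = 0.0384), and S100a10 (-1.73 ± 0.26, adjusted p = 7.15e-05) and the annexin 1 receptor gene Fpr2 (-1.24, adjusted p = 0.00239) were lower. Shares at 1000 UMIs in this class were 14.4% and 8.21% for Anxa1 (ntCZC median 4328 UMIs, 40.6% unthinned; tissue median 2400 UMIs, 20.4% unthinned) and 29.9% and 25.6% for Anxa2 (69.1% and 49.5% unthinned).

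B cell-like cells were compared in 6 ntCZC libraries, at 20 to 74 cells each, and 8 tissue libraries. The ntCZC libraries were het or null and none was wt, while the tissue libraries held all genotype labels. With no genotype term in the fit, the label is mixed with the kind here. Of 5 annexins tested, Anxa11 was called higher in ntCZCs (34.8% of 3977 genes were called). Anxa11 was at 165, 132, 70.9 and 18.5 CPM in het replicates 1 to 4 and at 74.0 and 41.9 CPM in null replicates 2 and 4, while the 8 tissue libraries lay between 21.4 and 50.3 CPM. Het replicate 4 (1 UMI) and null replicate 4 lay within or below the tissue range. The log2 fold change was 1.26 ± 0.29 (adjusted p = 0.00284), and the shares of positive cells at 1000 UMIs were 6.58% in ntCZCs (median 3302 UMIs, 30.6% unthinned) and 4.01% in tissue (median 1631.5 UMIs, 8.74% unthinned). With at least 50 cells per library the call was lost (1.00, adjusted p = 0.0874). That refit kept only ntCZC het replicate 3 (74 cells) and null replicate 4 (60 cells) on the ntCZC side.

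No other annexin tested in B cell-like cells passed the threshold. Anxa6 was at 49.8 ± 22.3 and 90.6 ± 26.9 CPM (-0.81 ± 0.29, adjusted p = 0.0601) and lay close to it, being called lower in 8 of 14 refits that left out 1 library (ntCZC het replicates 3 and 4, tissue wt replicates 1, 2 and 4, tissue het replicates 1 and 2 and tissue null replicate 2; -0.82 to -1.04) and in 5 of 8 other alternatives. Anxa2 was at 221 CPM in ntCZC het replicate 1 and 0 to 21.0 CPM in the other 5 ntCZC libraries, against 35.8 to 155 CPM in tissue (-0.55, adjusted p = 0.494). Without het replicate 1 Anxa2 was called lower (-2.55, adjusted p = 0.00266). In the ntCZC libraries compared, Anxa1 gave 2 UMIs in B cell-like cells, in het replicate 3 (1.94 CPM). In tissue it was at 0 to 70.5 CPM, with the highest value in wt replicate 2. Anxa3 gave 0 UMIs in B cell-like cells of the ntCZC libraries compared, which allows up to 1.84 CPM, and 9.25 ± 7.10 CPM in tissue. Both were left out by the filter on low counts. Of 9 partners tested, Sri (0.54, adjusted p = 0.0309), Plgrkt (0.72, adjusted p = 0.0385) and S100a11 (1.06, adjusted p = 0.0414) were higher and Pdcd6ip, the Alix gene, was lower (-0.88, adjusted p = 0.0109).

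**Figure D3:**
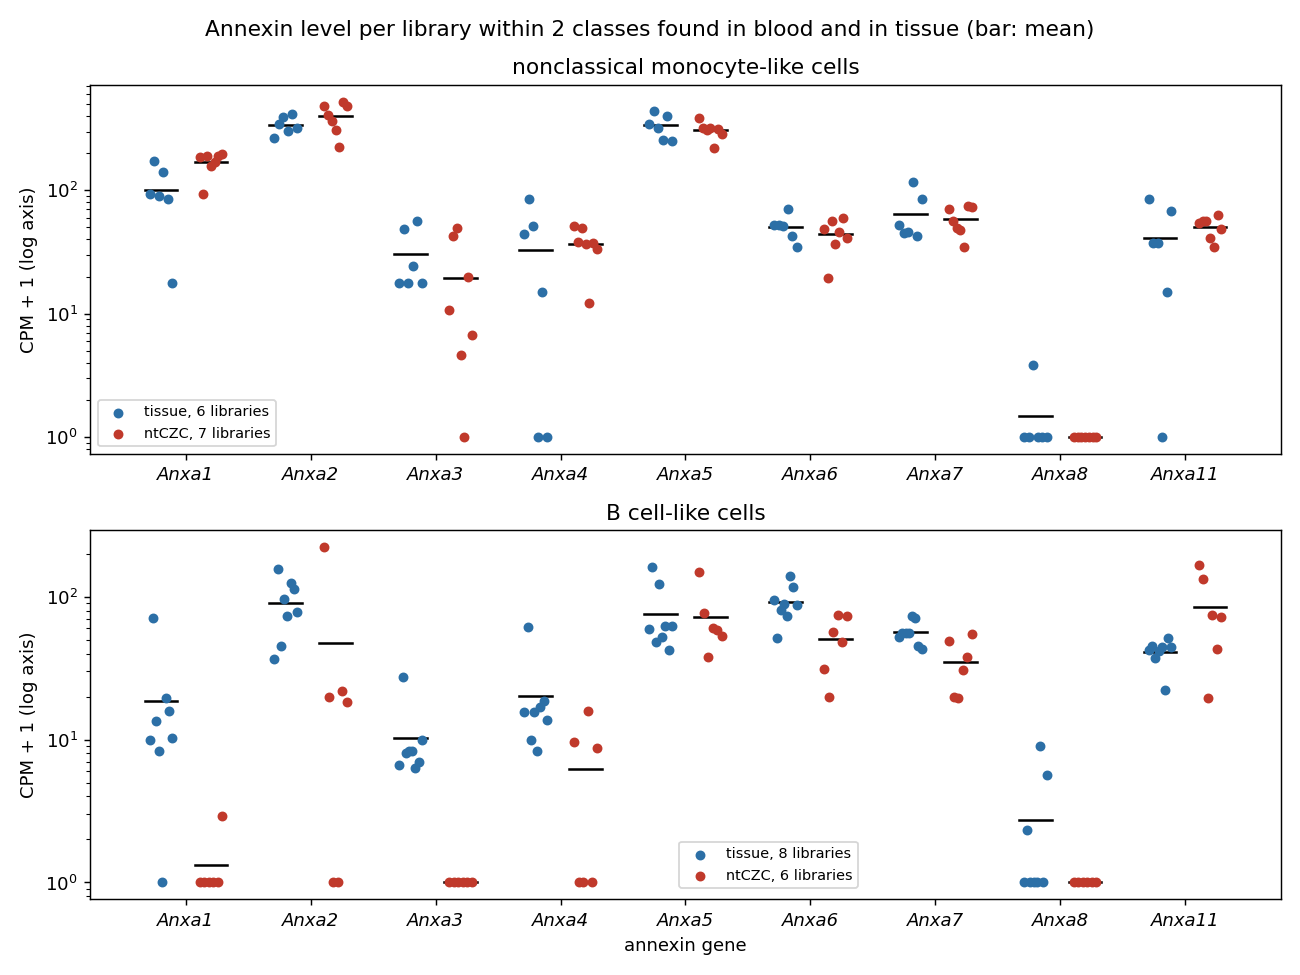
Level of each annexin (y axis, CPM + 1 on a log axis) in nonclassical monocyte-like and B cell-like cells, with ntCZC and tissue libraries side by side. Each point is 1 library with at least 20 cells of the class and the bar is the mean; Anxa11 in B cell-like cells is at 18.5 to 165 CPM in ntCZCs and 21.4 to 50.3 CPM in tissue.

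The difference of the kind contrast between these classes was tested in 1 fit over 4971 genes, of which 4.41% were called. The 27 sums in it came from 16 libraries, 11 of which gave both classes, and the fit took them as independent. With the library as a block, an alternative added after seeing the data, 2.72% of genes were called. Among the annexins that had passed the filter in each class, Anxa11 had a difference of -1.42 ± 0.43 (adjusted p = 0.0540), which DESeq2 called; with the block it was -1.09 (adjusted p = 0.292). Anxa1, which the filter had left out of the B cell-like fit, entered this fit through the monocyte-like cells. Its fitted difference of 4.21 ± 1.09 on the log2 scale (adjusted p = 0.0206) rests on the 2 Anxa1 UMIs of ntCZC B cell-like cells in the fit and depends on the prior count, so nothing is read from it. It did not pass without ntCZC het replicate 3, the library with those UMIs (7.25, adjusted p = 0.0602), without null replicate 4 (3.84, adjusted p = 0.0585) or with at least 50 cells per library (3.67, adjusted p = 0.256). At 50 cells, only het replicate 3 and null replicate 4 gave ntCZC B cell-like sums. In the partner list, S100a10 was called (-2.66, adjusted p = 0.00206), also with the block (-2.33, adjusted p = 0.0138).

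Tissue wt replicate 2 stood apart from the other tissue libraries in Anxa1 across classes. It was at 70.5 CPM in B cell-like cells against 0 to 18.7 CPM in the others, 83.6 CPM against 0 to 8.42 CPM in kidney proximal tubule-like cells, and 505 CPM against 19.0 to 289 CPM in macrophage-like cells. Plasma cell-like cells, the class lowest in Anxa1, held 13.4 CPM there, on few UMIs, and 0 elsewhere. The part of RNA from other cells in these values was not tested.

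For the other circulating classes no test between kinds was planned, and their values are given as a description. Classical monocyte-like ntCZCs were at 520, 451 and 567 CPM for Anxa1 in het replicate 4, null replicate 2 and wt replicate 1, and at 817, 879 and 897 CPM for Anxa2, against 255 and 666 CPM on average in tissue. In all 3 libraries both genes lay above each of the 8 tissue libraries. How many of all genes were separated in this way was not counted, so nothing particular to these genes is read from it. A fit of 3 against 8 libraries was possible, but the values had been seen first. Neutrophil-like ntCZCs, 96 cells of wt replicate 1, were at 1117 CPM for Anxa1, 1380 CPM for Anxa2, 237 CPM for Anxa11 and 6.57 CPM (1 UMI) for Anxa5. Macrophage-like ntCZCs of het replicate 3 and null replicate 1 were at 274 and 233 CPM for Anxa3 and at 263 and 64.7 CPM for Anxa5. Retnla, Saa3 and C1qa led this class.

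In PBMCs, Anxa6 was at 361 CPM in 45 NK cell-like cells, 164 CPM in 238 T cell-like cells and 115 CPM in 225 B cell-like cells. Anxa1 was at 562 CPM (16 UMIs) and Anxa2 at 1406 CPM in 31 neutrophil-like cells, while B cell-like cells gave 1 Anxa1 UMI (2.74 CPM). Across kinds, shares at 1000 UMIs for Anxa1 in neutrophil-like cells were 51.0% in ntCZCs (61.0% unthinned, median 1508 UMIs) and 22.4% in tissue (median 1569 UMIs), against 0.320% and 1.73% in B cell-like cells (1.57% and 3.34% unthinned). Of the 105 neutrophil-like ntCZCs pooled here, 96 came from wt replicate 1, so their share is mostly that of 1 library. For Anxa6 in T cell-like cells they were 12.1% in ntCZCs (45.2% unthinned, median 4689.5 UMIs), 16.0% in tissue (30.6%, median 1872 UMIs) and 15.4% in PBMCs (33.2%, median 2532 UMIs). Thinning brought the T cell-like shares close to each other, and turned the order of ntCZCs and tissue.

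**Figure D4:**
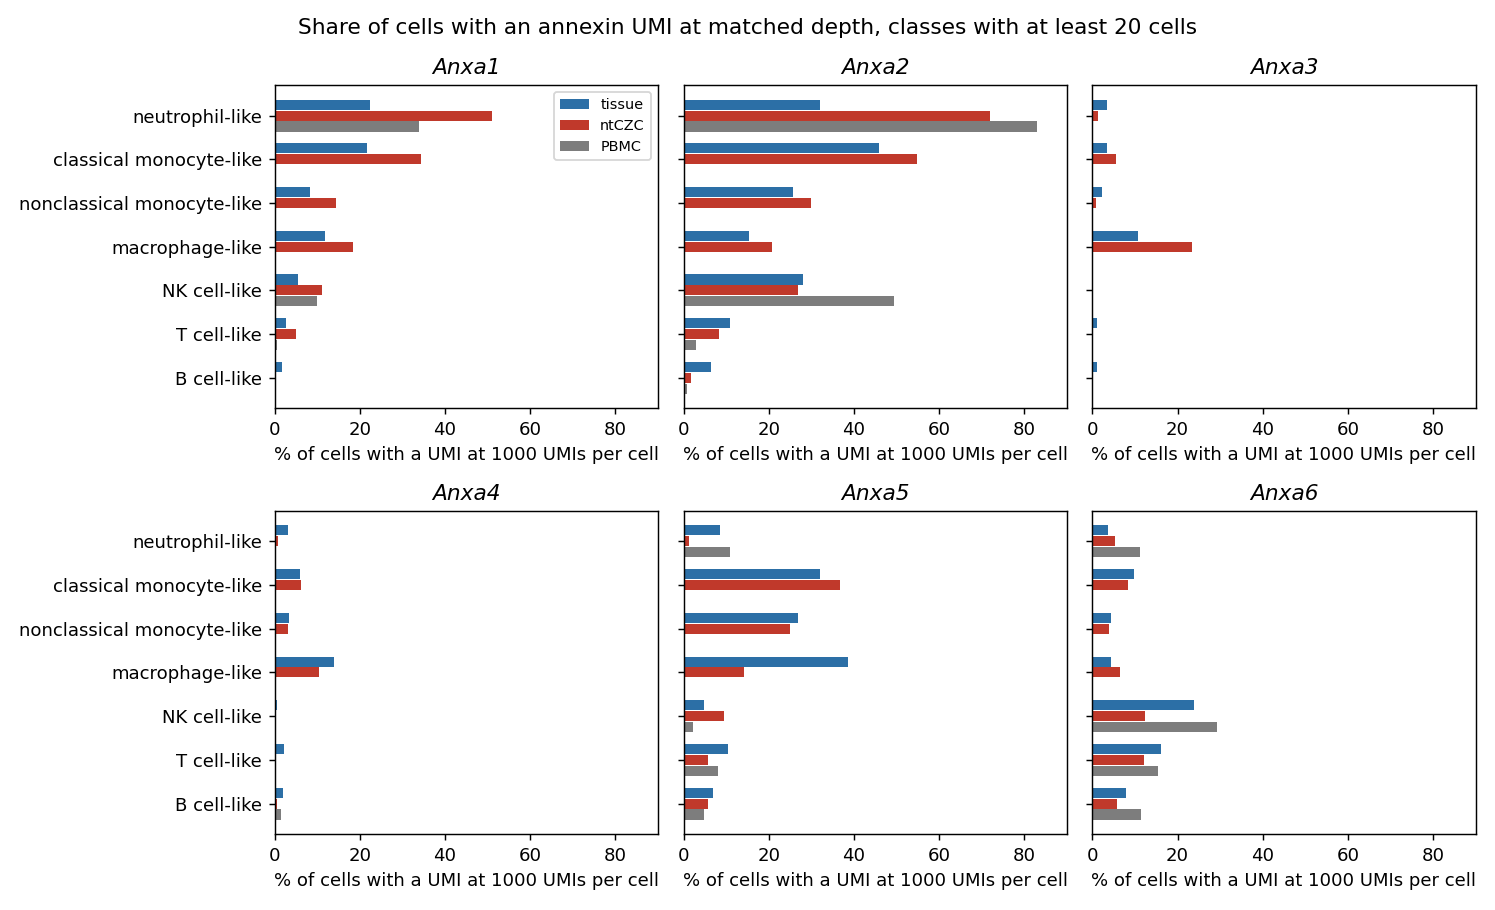
Share of cells with at least 1 UMI of Anxa1 to Anxa6 (x axis, percent, each cell thinned to 1000 UMIs) in 7 blood cell classes (y axis), for tissue, ntCZC and PBMC cells pooled over libraries. Anxa1 is found in 51.0% of neutrophil-like ntCZCs, of which 96 of 105 came from wt replicate 1, and in 0.320% of B cell-like ntCZCs.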

How the data were processed

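The authors aligned reads of 22 mouse 10x Genomics 3' libraries to mm10 with Cell Ranger (2.1.1 in the submitters' notes, 3.0.2 in the matrix headers; Seurat is also named) and deposited filtered matrices of UMI counts, 31053 genes by barcode, with no normalization. CPM divides a gene's UMIs by all UMIs of the library or class sum. For the gate, barcodes needed 200 genes or more and a mitochondrial share of no more than 25%; each was placed in the class with the most markers detected (at least 3, leading by at least 2), after removal of doublets called in tissue libraries by Scrublet in scanpy 1.11.5 (15088 barcodes, expected rate 0.8% per 1000 barcodes up to 25%); no doublets were called in the small blood libraries. Class sums needed at least 20 cells in a library. Sums were tested with edgeR 4.0.16 (R 4.3.3; quasi-likelihood test, TMM, filterByExpr, sex as covariate, Benjamini-Hochberg adjustment over all genes tested, threshold 0.05); in the tests of each tissue class against the others the library was a block and sex was no covariate. Thinned shares are the chance of at least 1 UMI when a cell is drawn down to 1000 UMIs, leaving out shallower cells.

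Members, partner and marker lists were chosen with earlier results of these data known. All 9 members are named; of the partners, up to 4 per comparison, called ones first by adjusted p. Genotype fold changes are printed only for members with an unadjusted p under 0.05, a rule set after values were seen. Intervals and limits for a count of 0 (3 counts, 95%) cover counting error only. Gene positions and promoters came from RefSeq and the mm10 annotation, in which 31011 identifiers were found. The test was checked on simulated data. Alternatives were RLE scaling, DESeq2 1.42.0, no filter, no sex term, a replicate block, stricter barcodes, a lead of 1 marker, no doublet removal, at least 50 cells, each library left out and, added after seeing the data, haemoglobin genes left out and a block of genotype and number, and the library as a block in the difference between classes. Hashtag counts were not used here.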

Additional observations from a re-analysis of the deposited data

Results flagged for a closer look

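Among 27 groups of 4 or more libraries, 4 held a value far from its group by Dixon's test, of which chance gives about 1 in 20 groups. Anxa1 was at 198 CPM in tissue wt replicate 2, with the other wt libraries at 37.0 to 83.7 CPM. Anxa4 was at 160 CPM in the same library, with the others at 43.9 to 74.4 CPM. Anxa6 was at 69.0 CPM in ntCZC null replicate 2, with the others at 35.7 to 40.7 CPM. Anxa8 was at 1.05 CPM (1 UMI) in ntCZC het replicate 1, with the other het libraries at 0; any single UMI gives that outcome, so 3 values are left to set against the chance rate.

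The difference between ntCZC and tissue libraries in Anxa1 was itself different between nonclassical monocyte-like and B cell-like cells, by 4.21 on the log2 scale (adjusted p = 0.0206, edgeR). This value is no finding: Anxa1 gave 2 UMIs in the ntCZC B cell-like cells of the fit and passed the filter through the monocyte-like cells, where it is high. The threshold was missed without ntCZC het replicate 3 (7.25, adjusted p = 0.0602), without ntCZC null replicate 4 (3.84, adjusted p = 0.0585) and with at least 50 cells (3.67, adjusted p = 0.256). At 50 cells these were the only ntCZC libraries with a B cell-like sum.

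The tissue library without a group that is numbered 1 was above each tissue wt library in 5 annexins: Anxa2 at 477 CPM, Anxa3 at 84.1 CPM, Anxa7 at 74.1 CPM, Anxa8 at 5.42 CPM and Anxa11 at 74.2 CPM. The highest tissue wt values were 329, 82.0, 66.4, 4.09 and 58.7 CPM, in that order. The other library without a group, numbered 3, was above them in none of the 9. Over all tissue libraries with a group, Anxa8 reached 6.42 CPM, above the 5.42 CPM of the library numbered 1. How many of all genes lay above each wt library was not counted, so nothing is read from the number of annexins.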

How the results depend on the processing

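Between ntCZC and tissue libraries, Anxa1 stayed higher and Anxa4 and Anxa7 lower in all alternatives run. Anxa1 lost it with stricter barcodes (0.55, adjusted p = 0.154), when Anxa5 gained it (-0.60, adjusted p = 0.0388), and Anxa7 with a replicate block (-0.34, adjusted p = 0.0814). With ntCZC and tissue libraries of 1 genotype and number as a block, added after seeing the data, 1 annexin stayed called, Anxa1 (0.95, adjusted p = 0.0406), while Anxa4 (-0.62, adjusted p = 0.0743) and Anxa7 (-0.47, adjusted p = 0.0908) did not pass and Anxa3 changed sign (0.075); only 6 pairs inform this fit. Anxa4 passed in every other alternative. Changes of sign were found for members that did not pass: with RLE scaling Anxa2 (-0.068) and Anxa6 (-0.20), with DESeq2 Anxa3 (0.036) and Anxa11 (0.037), with no filter Anxa6 (-0.037), with the replicate block Anxa3 (0.048), with no sex term Anxa3 (0.079), and with stricter barcodes Anxa2 (-0.35) and Anxa6 (-0.046). RLE scaling moved the median of all genes from -0.08 to -0.30. Leaving out haemoglobin genes changed no call.

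In nonclassical monocyte-like cells 0 annexins were called, and 1 with DESeq2 (Anxa5), with no filter (Anxa3, -1.11) and with a lead of 1 marker (Anxa4, -0.80). Signs changed for Anxa7 with no filter (0.0089) and at least 50 cells (0.17) and for Anxa2 with a lead of 1 marker (-0.18) and no doublet removal (-0.12). In B cell-like cells the 1 call became 2 with RLE scaling, DESeq2, the replicate block or a lead of 1 marker, each adding Anxa6 (-0.87, -0.78, -0.81 and -0.81), 4 with no filter (adding Anxa1, Anxa3 and Anxa6) and 0 with at least 50 cells, where Anxa7 changed sign (0.068). Anxa1 had 2 UMIs and Anxa3 had 0 UMIs in the ntCZC B cell-like cells compared. Their fitted values with no filter depend on the prior count, so nothing is read from these 2 calls. At 50 cells, ntCZC B cell-like sums were left in het replicate 3 and null replicate 4 only. In B cell-like cells Anxa5 changed sign with a lead of 1 marker (-0.16) and no doublet removal (-0.070). The 1 call in the difference between classes became 2 with DESeq2, a lead of 1 marker or no doublet removal, each adding Anxa11, and 0 with at least 50 cells (Anxa1 3.67, adjusted p = 0.256). With the library as a block, added after seeing the data, the count stayed 1 (Anxa1, 7.05, adjusted p = 0.0278), and calls over all genes fell from 219 to 135. Anxa1 entered this difference through the monocyte-like cells, where it is high, so its calls are no finding with or without the block. With at least 50 cells, where fewer libraries enter, 61 tissue class calls were made; of the 97 calls, which include 4 of Anxa8, 62 had a value there, 54 of which passed again and 8 did not.

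With each library left out, annexin calls ranged from 3 to 4 between kinds and 0 to 1 in nonclassical monocyte-like cells. They ranged from 1 to 2 in B cell-like cells, 0 to 2 in the difference and 87 to 97 in tissue classes. Between kinds, Anxa1 and Anxa4 were called in all 19 refits, Anxa7 in 17 and no other member of the main fit in any. Further calls there are of Anxa8, where the filter let it in, and are not read. For ntCZC null against wt no annexin was called with a het or null library left out. Without either wt library only 1 wt is left, the haemoglobin-rich one without replicate 1, and no count is given. Values that changed sign ranged from -0.22 to 0.10 (Anxa3), -0.15 to 0.046 (Anxa11) and -0.063 to 0.074 (Anxa6) between kinds, from -0.13 to 0.062 (Anxa7), -0.34 to 0.31 (Anxa11) and -0.077 to 0.12 (Anxa2) in nonclassical monocyte-like cells, from -0.31 to 0.38 (Anxa5) in B cell-like cells and from -0.66 to 0.054 (Anxa5) in the difference. The cause of these changes was not tested. Of 1111 refits of genotype values not printed, 97 changed sign. Libraries of 1 number did not deviate together across genotypes (r from -0.299 to 0.166 over 13 pairs). Nor did ntCZC and tissue libraries of 1 genotype and number (-0.0373 to 0.0663 over 6 pairs). Such correlations between blood cells and pooled organs cannot show whether 2 libraries came from 1 mouse. Of the 6 pairs, 4 were of the same age and sex, and a shared mouse was not tested.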

Other observations

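Of 3 other annexins looked up, 2 were in the matrices, and Anxa13 was not analysed here. Anxa10 was at 341 ± 258 CPM in gastric mucous-like cells, against at most 4.76 CPM on average in any other tissue class, at 1.52 to 21.5 CPM over all barcodes of the tissue libraries, and gave 0 UMIs in the ntCZC and PBMC libraries. Anxa9 was at 32.9 ± 23.2 CPM in mesothelial-like cells and 18.3 ± 9.90 CPM in epididymal epithelium-like cells.

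In the tissue library without a group numbered 1, Anxa8 was at 150 CPM in ciliated-like and 103 CPM in mesothelial-like cells. Anxa2 was at 1158 CPM in its alveolar macrophage-like cells, of which it held 1919.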
